A study of Mus musculus with 6 samples.

Results

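The 35 genes described here encode the machinery that macrophages use to engulf particles and dead cells: the ELMO, DOCK and Rac signalling module, the WASP and WAVE activators of actin assembly, the subunits of the Arp2/3 complex, and regulators of actin filaments. They were chosen by symbol, from 56691 gene rows in each table of counts, and 34 of them were among the 14856 genes that passed the low-count filter and were tested. The cells were mouse bone marrow-derived macrophages, primary phagocytes differentiated in culture from marrow precursors. Cells of 3 mice, named a, b and c, were seeded on day 4 and received on day 6, for 24 h, either 2 µM thiothixene, an antipsychotic drug that blocks dopamine receptors, or the solvent DMSO. Each mouse gave 1 library per treatment, so that 3 thiothixene libraries were compared with 3 DMSO libraries. The labels give no genotype, strain or age for the mice. The series title names continued efferocytosis, the repeated uptake of dead cells, as its subject, and the comparison asks whether transcripts of the uptake machinery differed after the drug.

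When a phagocyte recognises a dead cell, adaptor proteins recruit ELMO and DOCK proteins, which together load Rac with GTP. GTP-bound Rac and Cdc42 then release the WAVE complex and WASP proteins from inhibition, and these switch on the Arp2/3 complex, which nucleates branched actin filaments and pushes out the membrane that closes around the target. Cofilin, profilin, coronins and VASP turn filaments over, supply monomers and control branching, and RhoA opposes engulfment by raising contractility.

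Counts assigned to genes ranged from 18548095 to 20264090 per thiothixene library and were 21327185, 10472349 and 22297520 with DMSO in mice a, b and c. Levels are given in CPM, counts scaled to library size with TMM factors. The macrophage list was abundant in every library (10 of 10 markers found, 9 tested, summed level 11730 to 13365 CPM with thiothixene and 11045 to 18944 CPM with DMSO). Neutrophil markers (12 of 13 tested) summed to 376 to 437 CPM with thiothixene and 417 to 937 CPM with DMSO, and erythroid and megakaryocyte markers (2 of 6 tested) to 288 to 489 and 331 to 1516 CPM. The highest of these sums was in the DMSO library of mouse b each time, and Hbb-bs was at 0. Stromal markers (8 of 9 tested, Lum at 0) summed to 75.7 to 378 CPM and 126 to 231 CPM, and dendritic markers (2 of 7 tested) to 16.7 to 30.2 and 8.48 to 15.9 CPM. Itgax was the highest dendritic marker, at a mean of 14.9 CPM, and so made up most of that sum. T, NK and B cell markers (1 of 9 tested, Ms4a1 among those at 0) summed to 11 to 14.4 and 5.20 to 11.2 CPM. Most of it was Cd4, at a mean of 9.87 CPM. Mast cell markers (2 of 4 tested, Fcer1a at 0) summed to 1.88 to 3.20 and 1.00 to 2.45 CPM. The part of such cells in the results was not tested. In bulk RNA of this kind, fewer cells of a type and less RNA per cell cannot be told apart. Reads not aligned made up 4.978% of the thiothixene library of mouse a and 4.516% of the DMSO library of mouse c, against 1.85% to 2.31% in the others. Those libraries and the DMSO library of mouse b also stood apart in the genes described here, as given below with each result.

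None of the 34 tested genes rose or fell past the threshold (edgeR's quasi-likelihood test, Benjamini-Hochberg adjusted p of 0.9998 for each), and of all 14856 genes 0 passed, which is 0% of those tested. At an unadjusted p under 0.05 the engulfment genes again numbered 0, against 256 (1.72%) of all genes, and their unadjusted p-values ran from 0.168 to 0.986. Log2 fold changes, thiothixene over DMSO, lay between -0.68 and 0.31 with standard errors from 0.25 to 0.64. Of the 34 genes, 23 (67.6%) were below 0 and 11 above, with a median of -0.15, beside 54.7% below 0 and a median of -0.04 over all tested genes. With the mouse as a block 19 were below 0 and the median was -0.08, with limma-voom 19 were below 0, and with per-library offsets for GC content and transcript length 28 were below 0. All 34 of the 95% intervals included 0, and 21 of them excluded a change of 2-fold or more in either direction. For the other 13 genes, a 2-fold difference in at least 1 direction was not excluded by these libraries.

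**Figure D1:**
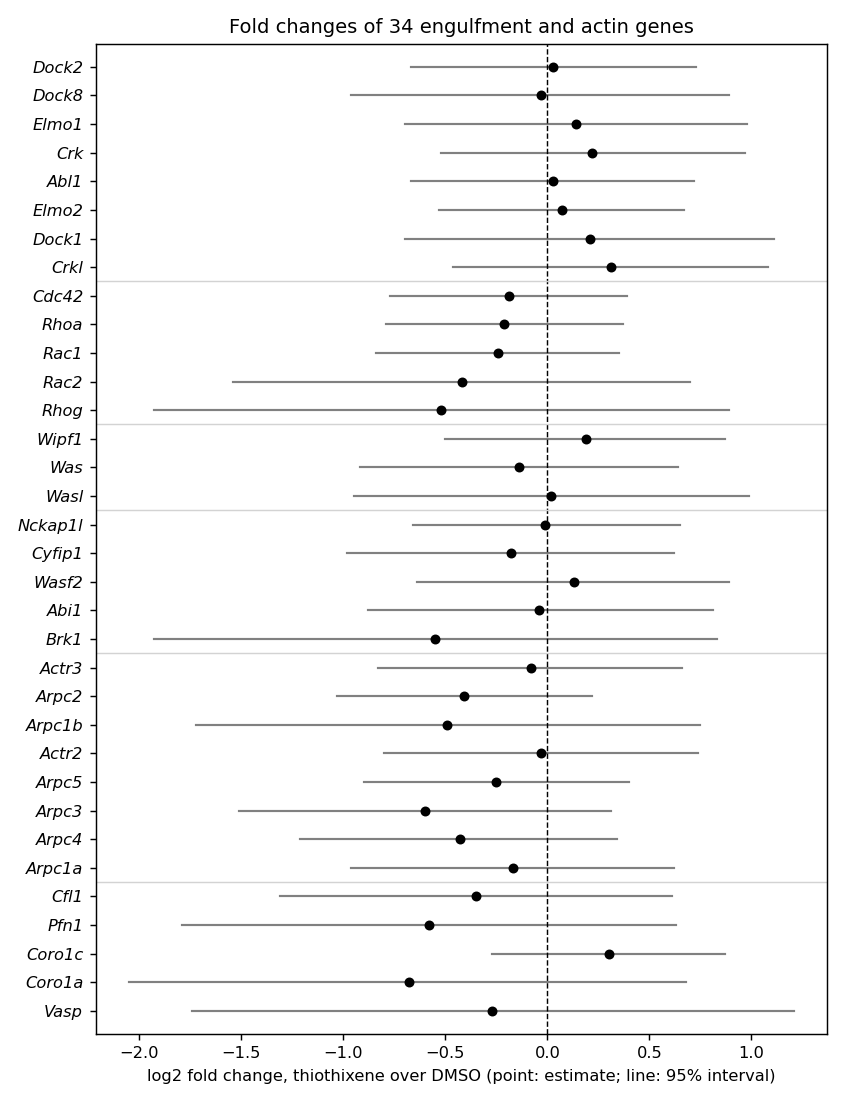
Log2 fold change (thiothixene over DMSO) of each of the 34 tested genes, grouped by role from engulfment signalling at the top to actin regulators at the bottom, with the 95% interval of edgeR's quasi-likelihood fit as a line. Every interval crosses 0, the narrowest belong to genes such as Coro1c, Cdc42 and Rhoa, and the widest to Vasp, Rhog and Brk1.

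The first genes of the pathway, those that carry the signal from the receptor to Rac, lay close to equality, with 7 of 8 above 0, a median log2 fold change of 0.11 and none past the test. Without DMSO b, 2 of 8 were above 0 (median -0.10), with the offsets for GC content and length 4 of 8 (median -0.01), and without thiothixene a, DMSO b and DMSO c 1 of 8 (median -0.13). Elmo1 encodes the scaffold that binds DOCK proteins and helps them act on Rac. It was at 285, 219 and 196 CPM after thiothixene (mice a, b and c, the order used throughout) and at 227, 121 and 287 CPM after DMSO, 233 ± 46.2 against 211 ± 84.0 CPM (SD, n = 3). The DMSO libraries held both its lowest and its highest value, so the groups overlapped fully. Elmo2, its paralog, was the steadiest gene among thiothixene libraries, at 102, 106 and 102 CPM, with 116, 94.7 and 85.1 CPM in DMSO.

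Dock1 and Dock2 encode exchange factors that load Rac with GTP. Dock2, the form typical of blood cells, was the more abundant per kilobase of exon, by 3.13-fold to 5.35-fold in the 6 libraries (415 ± 46.3 CPM with thiothixene, 407 ± 119 CPM with DMSO, SD, n = 3; log2 fold change 0.03, SE 0.31). Dock1 was at 122, 97.1 and 74.6 CPM against 102, 43.8 and 109 CPM (log2 fold change 0.21, SE 0.40). For both genes the lowest library was DMSO of mouse b, at 287 CPM for Dock2.

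Dock8, an exchange factor for Cdc42 needed for the migration of immune cells, was at 358, 311 and 315 CPM with thiothixene and at 428, 153 and 423 CPM with DMSO. The thiothixene values lay between the low DMSO library of mouse b and the high ones of mice a and c, and the log2 fold change was -0.03 (SE 0.40, 95% interval -0.96 to 0.89). Without the 3 libraries that stand apart, which leaves thiothixene b and c and DMSO a, the value for Dock8 was -0.45. That fit has a lone DMSO library, assumed to vary like the thiothixene libraries. No mouse is in both of its groups, so treatment and mouse cannot be told apart. The libraries were also left out after seeing these data, and the calls of that fit are not interpreted.

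Crk and Crkl encode adaptors that link phosphorylated docking proteins to DOCK1. Crkl had the highest fold estimate of all 34 genes, a log2 fold change of 0.31 (SE 0.34, 95% interval -0.46 to 1.08), at 86.0, 75.3 and 75.3 CPM with thiothixene and 75.9, 37.7 and 77.3 CPM with DMSO. Only the DMSO library of mouse b was far from the other 5, and without it the value for Crkl was 0.04. Crk was also lowest there, with 171, 143 and 159 CPM against 138, 86.1 and 180 CPM. Abl1, a tyrosine kinase that phosphorylates Crk proteins, averaged 138 ± 13.7 CPM after thiothixene and 136 ± 42.0 CPM after DMSO. Gulp1, an adaptor of engulfment receptors, was the one gene that did not pass the filter: it had 6, 5 and 5 counts with thiothixene and 1, 1 and 23 counts with DMSO. Most of its DMSO counts thus came from a single library, that of mouse c, and no fold is given.

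**Figure D2:**
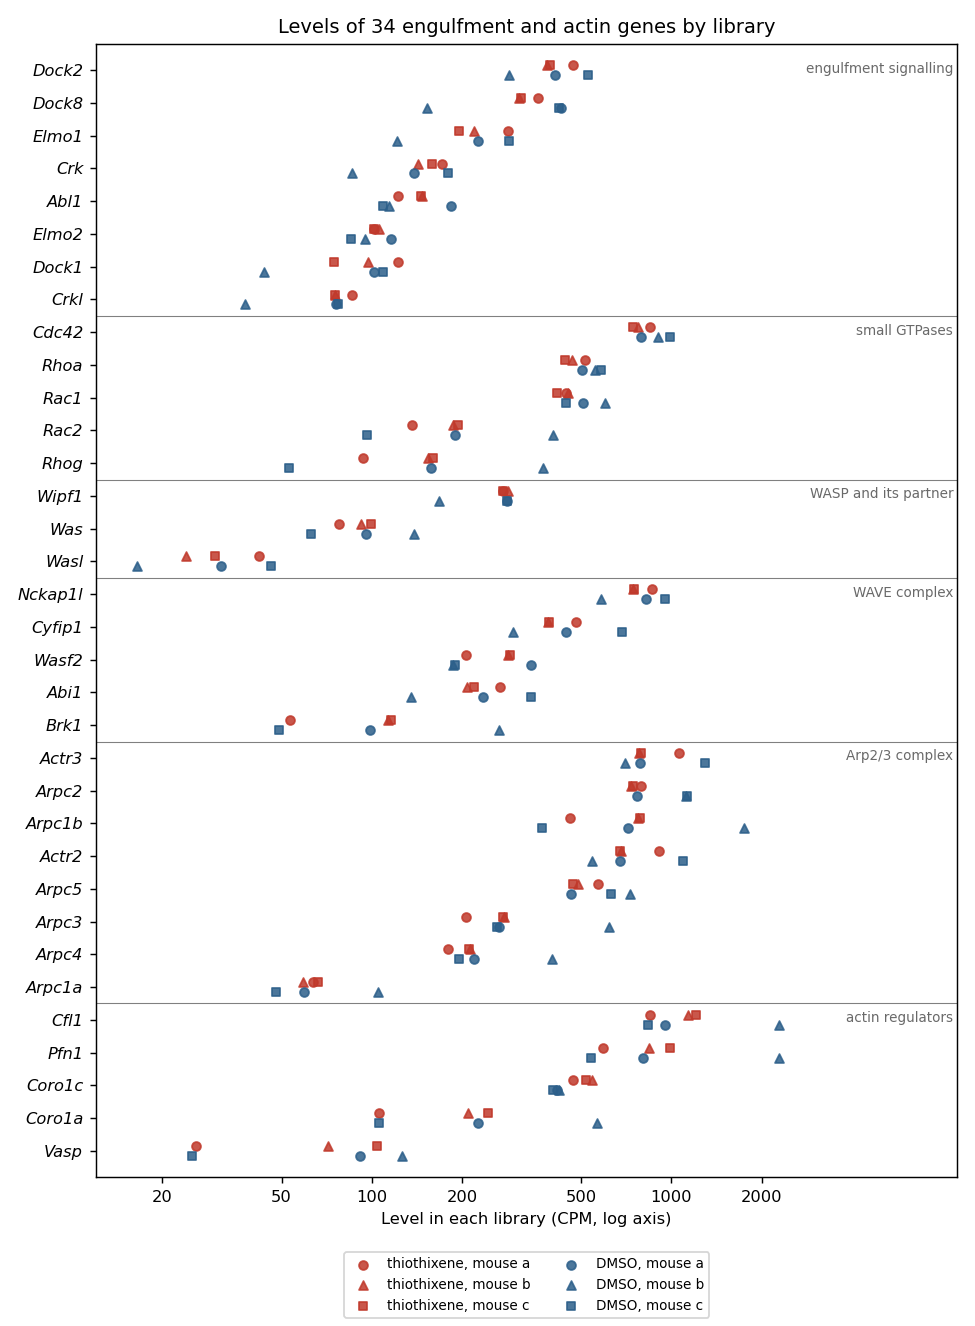
Level of each of the 34 tested genes in each of the 6 libraries, in CPM on a log axis, with thiothixene in red and DMSO in blue and a marker shape per mouse. The blue points are spread wider than the red ones in nearly every row, and Coro1c alone has all red points to the right of all blue points.

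All 5 small GTPases had estimates below 0, with a median log2 fold change of -0.24, and none passed the test. Rac1, the GTPase that drives the phagocytic cup, was at 446, 453 and 414 CPM with thiothixene and at 507, 599 and 446 CPM with DMSO, 438 ± 20.4 against 518 ± 77.1 CPM (SD, n = 3). It was the only one of the 34 genes lower in thiothixene in 3 of 3 mice, which held for 6.87% of all tested genes, and its groups overlapped narrowly, between 446 and 453 CPM. The log2 fold change was -0.24 (SE 0.26, unadjusted p 0.379 in edgeR). On the annotation, 51.4% of Rac1's exon bases (2309 bases) lie over Daglb on the opposite strand, and whether the counting used strand is not given in the sources used here.

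Cdc42, which activates WASP proteins, was the most abundant GTPase per kilobase of exon, at 845, 771 and 742 CPM with thiothixene and 794, 905 and 985 CPM with DMSO. Rhoa was at 513, 467 and 441 CPM against 504, 557 and 581 CPM. Both were lower with thiothixene in mice b and c and slightly higher in mouse a. Their means differed by more than the larger group SD, as did those of Rac1, Arpc2 and Coro1c and of no other tested member, yet the 95% intervals were -0.77 to 0.39 for Cdc42 and -0.79 to 0.37 for Rhoa.

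Rac2, the Rac of blood cells that also serves the phagocyte oxidase, and Rhog, which acts upstream of ELMO, varied far more. Rac2 was at 136, 186 and 194 CPM with thiothixene and at 190, 403 and 96.6 CPM with DMSO. Rhog was at 93.2, 154 and 160 CPM and at 157, 373 and 53.0 CPM, a 7.04-fold spread within DMSO that was the widest of the 34 genes. In both, DMSO of mouse b was the highest of 6 libraries and DMSO of mouse c the lowest, with every thiothixene library between them.

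Rac1 and Rac2 encode close relatives, yet their transcripts spread differently across libraries. Per kilobase of exon, the ratio of Rac1 to Rac2 ran from 1.03 in DMSO b to 3.19 in DMSO c, with 2.26, 1.68 and 1.47 in thiothixene a, b and c and 1.84 in DMSO a. The ratio averaged 1.81 ± 0.407 with thiothixene and 2.02 ± 1.09 with DMSO (SD, n = 3), so the spread among DMSO libraries exceeded the difference between groups. How the exon bases that Rac1 shares with Daglb affect these ratios was not tested.

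WASP, the activator of Arp2/3 in blood cells (Was), was at 78.0, 92.0 and 99.3 CPM with thiothixene and at 95.4, 138 and 62.9 CPM with DMSO. Its widely expressed relative N-WASP (Wasl) was at 42.0, 23.9 and 29.9 CPM against 31.5, 16.5 and 46.2 CPM. The pair ran in opposite order across DMSO libraries: mouse b had the most Was and the least Wasl, mouse c the reverse. Per kilobase, Was exceeded Wasl by 3.53-fold in DMSO c and by 21.7-fold in DMSO b. Wipf1, which encodes the WASP-interacting protein that stabilises WASP, was at 274, 285 and 275 CPM with thiothixene and at 282, 167 and 283 CPM with DMSO, with the DMSO library of mouse b alone away from the rest.

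The WAVE complex relays Rac to Arp2/3, and 4 of its 5 measured subunits had estimates below 0, with a median log2 fold change of -0.04 and none past the test. Nckap1l (HEM1, the blood cell form of the scaffold subunit) was the most abundant per kilobase, at 785 ± 66.3 CPM after thiothixene and 788 ± 188 CPM after DMSO (SD, n = 3). Cyfip1, which binds Rac, averaged 420 ± 53.6 and 475 ± 194 CPM. Wasf2 (WAVE2, the subunit that activates Arp2/3) averaged 260 ± 46.1 and 238 ± 87.2 CPM. These 3 genes differed between groups by less than the SD among DMSO libraries. Abi1, an adaptor subunit, was at 231 ± 31.3 and 237 ± 103 CPM. Brk1, the small stabilising subunit, behaved unlike its partners: it was at 53.2, 113 and 116 CPM with thiothixene and at 98.6, 266 and 48.9 CPM with DMSO. Brk1 was thus highest in DMSO b, the library in which Nckap1l, Cyfip1, Abi1 and Wasf2 were lowest, although all 5 proteins belong to a single complex. With the mouse as a block, 3 of the 5 estimates were above 0.

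All 8 Arp2/3 subunits had estimates below 0, from -0.03 to -0.60, with a median log2 fold change of -0.33, and none passed the test. Arpc3 had the smallest p of the 34 genes (unadjusted p 0.168 in edgeR), with 206, 277 and 273 CPM with thiothixene and 266, 618 and 261 CPM with DMSO. A single library, DMSO of mouse b, lay above the other 5, and the log2 fold change of Arpc3 was -0.60 (SE 0.40, 95% interval -1.51 to 0.31), or -0.06 without DMSO b. Arpc2, part of the core that holds the complex together, was at 794, 730 and 746 CPM against 768, 1117 and 1123 CPM (log2 fold change -0.41, SE 0.27, unadjusted p 0.174 in edgeR). In Arpc2 DMSO b and DMSO c were high together, while DMSO a lay within the thiothixene range. Arpc4, which pairs with Arpc2, was at 179, 212 and 211 CPM and at 220, 398 and 195 CPM, with a log2 fold change of -0.43 that was -0.05 without DMSO b.

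The actin-related proteins Actr2 (Arp2) and Actr3 (Arp3), which template the new filament, showed the opposite pattern across libraries. Actr2 was at 910, 677 and 675 CPM with thiothixene and at 674, 542 and 1089 CPM with DMSO. Actr3 was at 1058, 782 and 789 CPM and at 787, 698 and 1298 CPM. For both, DMSO c was the highest library, thiothixene a the next and DMSO b the lowest. Their ratio per kilobase was nearly constant, from 1.30 to 1.45 over the 6 libraries. Arpc5, a regulatory subunit, averaged 508 ± 51.3 CPM after thiothixene and 604 ± 133 CPM after DMSO (SD, n = 3).

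The size of the Arp2/3 estimates, and for some subunits their sign, changed with the libraries included. All 8 subunits were below 0 with RLE scaling, with DESeq2 and with the offsets for GC content and length, and 7 of 8 with the mouse block. Without DMSO b, 6 of 8 were below 0 with a median of -0.08, and without DMSO c 6 of 8 with a median of -0.35. Without all 3 libraries that stand apart, thiothixene a among them, 2 of 8 were below 0 with a median of 0.03. The 5 GTPases likewise went from 5 of 5 below 0 to 3 of 5 without DMSO b.

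Arpc1a and Arpc1b encode alternative forms of the same subunit, and their first 180 coding bases are set side by side as a pair whose transcripts differed in their spread. They neighbour each other on chromosome 5 (Arpc1a at chr5:145083830-145108761, Arpc1b at chr5:145114215-145130705, both on the plus strand of GRCm38), and the runs are given 5′ to 3′ from the GENCODE M21 annotation, with capitals at the bases that differ between the pair.
Arpc1a: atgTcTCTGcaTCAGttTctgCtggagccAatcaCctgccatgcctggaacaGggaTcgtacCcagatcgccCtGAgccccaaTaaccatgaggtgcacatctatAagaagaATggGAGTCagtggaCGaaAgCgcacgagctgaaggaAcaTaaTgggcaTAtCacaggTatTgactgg
Arpc1b: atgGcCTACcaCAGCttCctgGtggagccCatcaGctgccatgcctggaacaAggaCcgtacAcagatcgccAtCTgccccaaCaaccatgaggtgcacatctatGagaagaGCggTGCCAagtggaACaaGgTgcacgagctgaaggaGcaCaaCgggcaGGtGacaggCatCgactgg
The stretches differ at 40 of 180 bases, 22 at the last codon position, with GC content of 51.1% for Arpc1a and 57.8% for Arpc1b. Arpc1a was at 63.5, 58.9 and 66.1 CPM with thiothixene and at 59.2, 105 and 48.0 CPM with DMSO. Arpc1b was at 460, 775 and 785 CPM and at 718, 1741 and 369 CPM. Both were highest in DMSO b and lowest in DMSO c, and per kilobase Arpc1b exceeded Arpc1a by 3.63-fold (thiothixene a) to 8.32-fold (DMSO b).

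**Figure D3:**
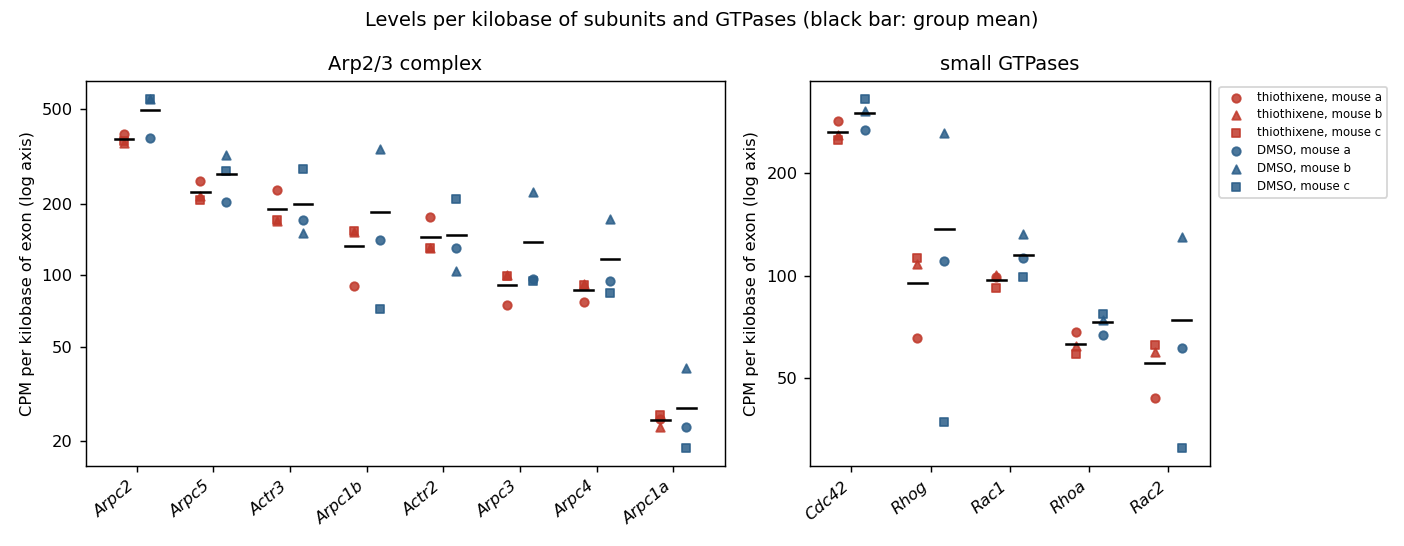
CPM per kilobase of exon (log axis) of the 8 Arp2/3 subunits and the 5 small GTPases in each library, ordered by mean, with a black bar at each group mean. Arpc2 is the highest subunit and Arpc1a the lowest, and Rhog, Rac2 and Arpc1b show the widest vertical spread among DMSO points.

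Among the actin regulators Coro1c was the one gene of the 34 whose groups did not overlap. It encodes a coronin, a protein of branched actin networks, and lies at chr5:113842436-113908758 on the minus strand. It was at 469, 541 and 518 CPM with thiothixene and at 416, 421 and 401 CPM with DMSO, 510 ± 37.0 against 413 ± 10.5 CPM (SD, n = 3), and higher with thiothixene in 3 of 3 mice. Complete separation with thiothixene higher was seen in 3.88% of all tested genes and with thiothixene lower in 2.77%, so 1 of 34 higher (Coro1c) and 0 lower was near that background. The log2 fold change of Coro1c was 0.30 (SE 0.25, 95% interval -0.27 to 0.87, unadjusted p 0.256 in edgeR). It was 0.17 (SE 0.21) with offsets for GC content and length. Coro1c also had the narrowest spread of the 34 genes within DMSO, 1.05-fold from lowest to highest library. Without the 3 libraries that stand apart the value was 0.35 (SE 0.09, adjusted p 0.0237 in edgeR, with the lone DMSO library and the 6.99% background noted above).

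Coro1a, the coronin of blood cells, had the lowest estimate of all, a log2 fold change of -0.68 (SE 0.59, 95% interval -2.05 to 0.68). It was at 106, 209 and 244 CPM with thiothixene and at 227, 564 and 106 CPM with DMSO. DMSO b was 5.33 times DMSO c, and DMSO c matched thiothixene a. Per kilobase, the ratio of Coro1c to Coro1a ran from 0.215 in DMSO b to 1.28 in thiothixene a, so which coronin was the more abundant changed from library to library.

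Cfl1 (cofilin, which severs filaments) was at 847, 1136 and 1209 CPM with thiothixene and at 955, 2279 and 833 CPM with DMSO. Pfn1 (profilin, which delivers actin monomers) was at 592, 840 and 991 CPM and at 801, 2289 and 540 CPM. In each the DMSO library of mouse b alone exceeded all others, and the group difference was smaller than the DMSO SD of 802 CPM for Cfl1 and 944 CPM for Pfn1. Cfl1 shares 468 exon bases (16.5% of its exons) with Snx32 on the opposite strand, and the tables gave Snx32 nearly as many counts, 0.972 to 1.079 times those of Cfl1 in each library. How many of these reads came from either gene cannot be told apart from the counts. Vasp, which extends filaments at the leading edge, was at 25.9, 71.4 and 104 CPM with thiothixene and at 91.4, 126 and 25.1 CPM with DMSO, the widest spread within thiothixene, 4.02-fold. Without DMSO b all 5 actin regulators were above 0, with a median of 0.25, where 4 of 5 were below 0 with all libraries.

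The promoters of Coro1c, the one gene with separate groups, and of Arpc3, the gene of smallest p, are given for comparison, since most members held the same common promoter motif. Each run spans 250 bases before to 50 after the start site, from RefSeq on GRCm38.p6, 5′ to 3′ in the direction of the gene (Coro1c chr5:113908657-113908956, minus strand; Arpc3 chr5:122391628-122391927, plus strand). Capitals mark GC boxes (GGGCGG, or CCGCCC on the other strand).
Coro1c: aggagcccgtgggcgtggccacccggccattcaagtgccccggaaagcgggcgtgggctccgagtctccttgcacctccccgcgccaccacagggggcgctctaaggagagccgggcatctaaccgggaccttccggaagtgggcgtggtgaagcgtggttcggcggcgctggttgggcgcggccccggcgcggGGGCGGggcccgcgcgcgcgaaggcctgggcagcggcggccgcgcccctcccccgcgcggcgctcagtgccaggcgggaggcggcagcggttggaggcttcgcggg
Arpc3: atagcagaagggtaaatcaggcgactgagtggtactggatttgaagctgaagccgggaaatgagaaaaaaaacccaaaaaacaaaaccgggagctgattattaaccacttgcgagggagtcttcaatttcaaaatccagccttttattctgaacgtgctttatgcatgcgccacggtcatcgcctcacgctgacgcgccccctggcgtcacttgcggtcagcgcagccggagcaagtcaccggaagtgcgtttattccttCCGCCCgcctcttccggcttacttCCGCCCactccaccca
The Coro1c window is 77% GC with 42 CpG dinucleotides, and the Arpc3 window 52.7% GC with 21. A window was found for 31 of the 35 genes, and 23 of those 31 (74.2%) held a GC box on either strand, against 38.2% of 27025 genes. Those genes were not matched to the members for expression or for GC content of the window, so the shares are not of like sets. Other motifs, scored as present or absent on either strand, were near the share of all genes: CCAAT in 11 of 31 (35.5% against 41.1%), TATAAA in 4 (12.9% against 15.7%) and GAGGAA, a core bound by PU.1, in 11 (35.5% against 31.3%). The CArG box, the motif of serum response factor, was found in the Arpc4 window alone (3.23% against 1.81%). These matches describe the sequence only, and no binding was measured.

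The main feature of the members' data was the distance between the DMSO libraries. The DMSO SD exceeded the thiothixene SD in 33 of 34 genes, and the ratio of the highest to the lowest DMSO library ran from 1.05 (Coro1c) to 7.04 (Rhog). On the log2 scale, the members' median SD was 0.58 with DMSO and 0.18 with thiothixene. Over all tested genes it was 0.66 and 0.30, so the wider DMSO spread was not particular to the members. DMSO b was the highest of the 6 libraries for 14 genes and the lowest for another 14, so it was an extreme for 28 of 34, and over all tested genes it was an extreme for 67.8%. DMSO c was highest for 12 and lowest for 12. In 12 of the 14 genes highest in DMSO b the lowest library was DMSO c or thiothixene a, and in 11 of the 14 lowest in DMSO b the highest was DMSO c or thiothixene a.

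Deviations from each gene's mean over all libraries, on the log2 scale, followed the same axis. Across the 34 genes, Pearson's r was 0.89 between thiothixene a and DMSO c, libraries of different mice and different treatments. It was -0.89 between thiothixene a and DMSO b and -0.84 between DMSO b and DMSO c. Over all tested genes the same pairs gave 0.25, -0.55 and -0.55. These are descriptions across genes, which are not independent replicates, and deviations that share a mean are bound to each other. The SD of the members' deviations was 0.82 in DMSO b, 0.59 in DMSO c and 0.43 in thiothixene a, against 0.14 to 0.20 in thiothixene b, thiothixene c and DMSO a.

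**Figure D4:**
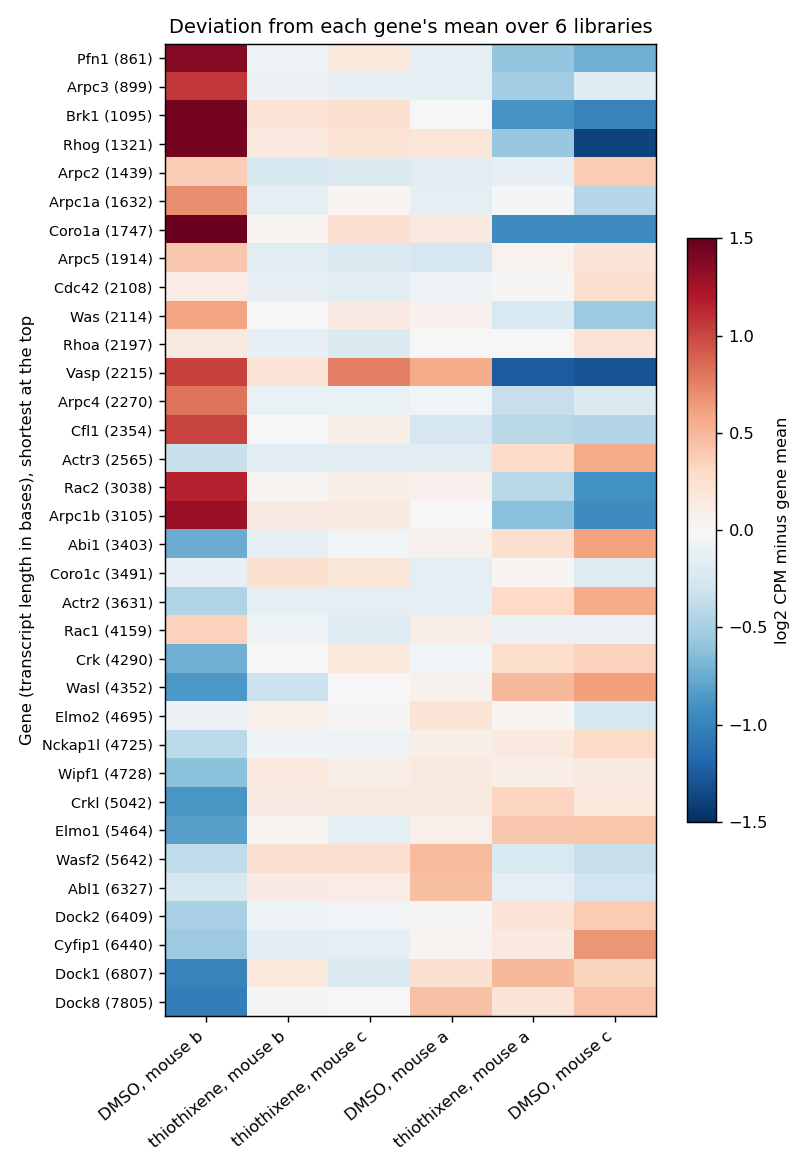
Deviation of each of the 34 genes from its own mean over the 6 libraries (log2 scale) in each library, ordered by transcript length with the shortest at the top. DMSO b and DMSO c mirror each other, thiothixene a resembles DMSO c in weaker form, and the remaining libraries stay near 0.

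The genes at either end of this axis differed in length and base composition. The 14 highest in DMSO b (Rac1, Rac2, Rhog, Was, Brk1, Arpc1a, Arpc1b, Arpc3, Arpc4, Arpc5, Cfl1, Pfn1, Coro1a and Vasp) had a median transcript length of 2014 bases and GC content of 52.6%. The 14 lowest in DMSO b (Elmo1, Dock1, Dock2, Dock8, Crk, Crkl, Wasl, Wasf2, Wipf1, Nckap1l, Cyfip1, Abi1, Actr2 and Actr3) had 4885 bases and 47.7%. Most of the signalling and scaffold genes are thus on the long side and most small actin-binding proteins and Arp2/3 subunits on the short side.

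Spearman's correlation between deviation and transcript length was -0.82 over the 34 genes in DMSO b, 0.50 in DMSO c and 0.65 in thiothixene a. For GC content it was 0.56 in DMSO b, -0.84 in DMSO c and -0.72 in thiothixene a. The same signs appeared over 14565 genes with a length and GC value, at -0.42, 0.25 and 0.24 for length and 0.48, -0.63 and -0.54 for GC content. Offsets for both were fitted to the deviations of these same libraries over all such genes, so a fall in SD is partly built in. With them, the SD of the members' deviations fell to 0.46 in DMSO b and 0.27 each in DMSO c and thiothixene a. The median SD among DMSO libraries went from 0.58 to 0.25 over the members, and from 0.66 to 0.44 over all genes. Even so, none of the 34 genes passed the test with these offsets, and the smallest unadjusted p-values in edgeR were 0.0581 for Coro1a (-0.49, SE 0.22), 0.0672 for Arpc4 (-0.37, SE 0.18) and 0.0798 for Arpc3 (-0.57, SE 0.28). What made the libraries differ was not tested.

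**Figure D5:**
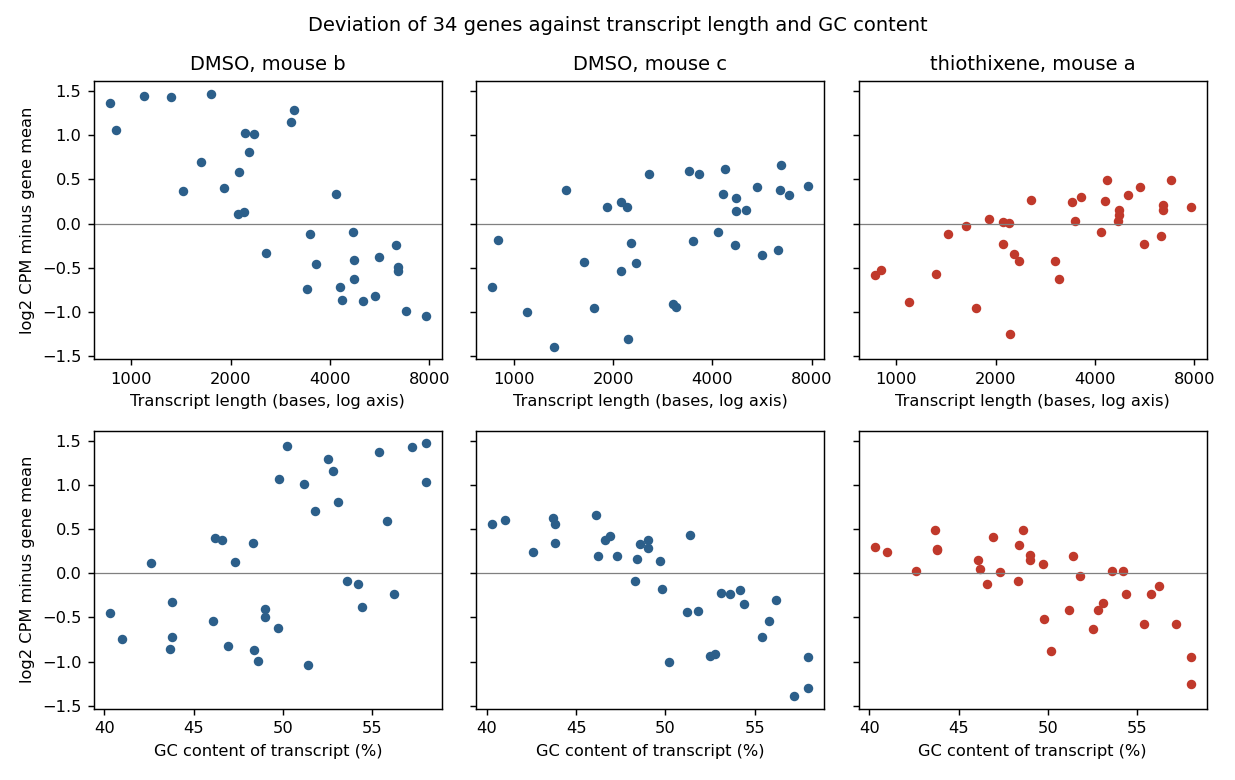
Deviation of each of the 34 genes (log2 scale) against transcript length in bases (log axis, top) and against GC content in percent (bottom), a panel for each of DMSO b, DMSO c and thiothixene a. The slopes in DMSO b run against those in DMSO c and thiothixene a, with Spearman's correlations of -0.82, 0.50 and 0.65 for length.

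Within mice the difference had no common direction. Thiothixene was the higher library for 17 of 34 genes in mouse a, 17 in mouse b and 16 in mouse c, and the median log2 differences were -0.01, -0.03 and -0.04. Only Coro1c was higher in all 3 mice (7.49% of all tested genes were) and only Rac1 lower in all 3, and the other 32 genes were mixed.

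Compared per kilobase of exon and averaged over the 6 libraries, the most abundant transcripts were Arpc2 at 433, Cfl1 at 425 and Pfn1 at 420 CPM per kilobase, followed by Cdc42 at 283 and Arpc5 at 244. The first 3 did not differ from each other beyond their spread over libraries. Arp2/3 subunits covered a wide range, from Arpc2 down to Arpc3 at 115, Arpc4 at 102 and Arpc1a at 26.0 CPM per kilobase. Signalling genes were at the lower end: Dock2 at 36.0, Dock8 at 32.9, Crk at 30.9, Elmo1 at 17.7, Elmo2 at 15.2 and Dock1 at 9.8 CPM per kilobase. Wasl, at 5.14, was the lowest tested gene, and Gulp1 was at 0.0858 CPM per kilobase. Using the longest transcript in place of all exon bases kept 9 of the 10 highest genes.

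Of 76 further genes of engulfment and actin control, 72 were tested, with 30 above 0, 42 below, a median log2 fold change of -0.04 and none past the test. At an unadjusted p under 0.05 there were 4 of 72, against 1.72% of all tested genes. Groups did not overlap for 6 of 72 with thiothixene higher and 2 of 72 with it lower, against 3.88% and 2.77% of all tested genes. The related genes of highest mean CPM were Actb (beta-actin, 4976 ± 348 CPM after thiothixene and 6962 ± 2388 CPM after DMSO, SD, n = 3), Tmsb4x, Lcp1 (the actin bundler L-plastin, 1940 ± 186 and 1990 ± 395 CPM) and Actg1 (gamma-actin, 1320 ± 54.1 and 1435 ± 346 CPM). Tmsb4x, thymosin beta-4, which holds actin monomers in reserve, was at 3336, 3295 and 3036 CPM with thiothixene and at 5052, 11265 and 4209 CPM with DMSO. Its groups did not overlap, and the log2 fold change was -1.09 (SE 0.40, unadjusted p 0.0255 and adjusted p 0.9998 in edgeR). Arhgdib, which keeps small GTPases inactive in blood cells, was at 386, 313 and 297 CPM against 379, 732 and 636 CPM (-0.81, SE 0.32, unadjusted p 0.0354 in edgeR).

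On the higher side stood Cyfip2 and Myo1e. Cyfip2, the paralog of the WAVE subunit Cyfip1, was at 241, 212 and 177 CPM with thiothixene and at 134, 66.2 and 152 CPM after DMSO (log2 fold change 0.84, SE 0.36, unadjusted p 0.0472 in edgeR). Myo1e, a membrane-bound myosin of the phagocytic cup, was at 199, 184 and 192 CPM and at 119, 94.3 and 158 CPM (0.63, SE 0.29, unadjusted p 0.0578 in edgeR). In both the 3 thiothixene libraries lay above the 3 DMSO libraries, while Cyfip1 itself overlapped, with an estimate of -0.18. Neither passed when adjusted over all genes.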

How the data were processed

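Raw gene counts in whole numbers were deposited by the authors for each of 6 libraries read as paired ends. The submitters' processing notes list the mm10 build and, without roles, STAR 2.7.11b, Trim Galore 0.6.10, FastQC 0.11.8 and DESeq2 1.44. What program did the counting, with which strand setting and annotation release, is not given in the sources used here. Rows that name no gene held 51.19% to 53.42% of each library's counts and stayed out of library sizes and tests. Most of these were reads in no annotated feature, 43.07% to 44.35% of each library's counts. Identifiers were matched to GENCODE M21 on GRCm38 without version numbers (52073 matched, 4618 did not, with 0.4% of gene counts). Of the 35 genes, 13 share exon bases with another gene, 12 of them on the opposite strand. Reads there may be assigned to either gene or set aside as ambiguous, a row that held 1.68% to 3.02% of each library's counts.

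Genes were tested two-sided with edgeR 4.0.16 under R 4.3.3 (filterByExpr, TMM factors, robust quasi-likelihood fit on treatment alone), with Benjamini-Hochberg adjustment over all genes tested at 0.05. Standard errors were derived from the log2 fold change and its F statistic. The procedure was tested on simulated data, with planted changes larger than any member's estimate and less spread between libraries than here. That test does not give its power or error rate in these libraries. All 35 members are named. From 76 related genes, those named are the 4 of highest mean CPM and the 2 of smallest p in each direction. The members and lists were chosen with earlier results of these data known.

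Replicates are separate mice, and the letters in the titles pair the libraries by mouse. Deviations of same-mouse libraries from their group means correlated at -0.131, 0.318 and -0.301 for mice a, b and c. Alternatives were the mouse as a replicate block, RLE scaling, no filter, a filter of 1 CPM in 3 libraries, DESeq2 1.42.0, limma-voom (limma 3.58.1) and leaving out each library. Chosen after seeing the data were offsets for GC content and length (splines, df 5), the same with the block, and a fit without thiothixene a, DMSO b and DMSO c.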

Additional observations from a re-analysis of the deposited data

How the results depend on the processing

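No alternative ended a call, since none of the 34 genes was called with all libraries. Of 510 values of single genes under an alternative, 422 kept their direction and side of the threshold and 86 changed sign. The other 2 were Dock8 (-0.45) and Coro1c (0.35) without the 3 libraries that stand apart. Both kept their direction, and the calls of that fit are counted below but not interpreted. Rac1, Cdc42, Rhoa, Arpc2, Arpc4 and Coro1c kept their sign throughout. The causes were not tested.

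The members' median log2 fold change of -0.15 was -0.08 with the replicate block, -0.17 with RLE, -0.11 without a filter, -0.06 with limma-voom, -0.13 with the offsets and the block and -0.03 without the 3 outlying libraries. It ranged from -0.19 to -0.06 when each library was left out in turn. Genes called numbered 1 without a filter (edgeR), 2 with DESeq2 and 1105 without the 3 libraries, among them 2 of the 34 members and 14 related genes. The fit without the 3 libraries called 6.99% of all 15807 genes it tested. It has a lone DMSO library and no mouse in both groups, so its calls are not interpreted. Members with separate groups numbered 2 of 34 with RLE and with CPM on total counts, Rac1 being added. The share over all genes was not counted under those scalings. With TMM it was 3.88% of all tested genes with thiothixene higher and 2.77% with it lower. The replicate block changed no call.

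With offsets, signs changed for Elmo2 (-0.08), Dock2 (-0.14), Abl1 (-0.18), Wasl (-0.01) and Wasf2 (-0.05). With offsets and the replicate block they changed for Elmo2 (-0.08), Dock2 (-0.13), Abl1 (-0.18), Wasl (-0.0048), Wasf2 (-0.04) and Abi1 (0.0015). Limma-voom turned Dock8 (0.09), Nckap1l (0.01), Abi1 (0.04) and Actr2 (0.01), the replicate block Dock8 (0.10), Nckap1l (0.02), Abi1 (0.06) and Actr2 (0.02), and no filter Nckap1l (0.02). Without the 3 libraries, values fell below 0 for Elmo1 (-0.12), Elmo2 (-0.15), Dock1 (-0.24), Dock2 (-0.07), Crkl (-0.01), Abl1 (-0.33), Wasl (-0.22), Wasf2 (-0.24) and Wipf1 (-0.01). They rose above 0 for Rac2 (0.0017), Rhog (0.0016), Was (0.01), Brk1 (0.22), Actr2 (0.01), Actr3 (0.0028), Arpc1a (0.08), Arpc1b (0.13), Arpc3 (0.05), Arpc5 (0.06), Cfl1 (0.30), Pfn1 (0.20) and Coro1a (0.0014).

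Leaving out 1 library at a time moved signalling genes between these lowest and highest values: Elmo1 -0.14 and 0.42, Elmo2 -0.02 and 0.21, Dock1 -0.11 and 0.43, Dock2 -0.17 and 0.26, Dock8 -0.38 and 0.20, Crk -0.01 and 0.49, Abl1 -0.11 and 0.32. For GTPases and WASP genes they were Rac2 -0.78 and 0.26, Rhog -0.96 and 0.37, Was -0.38 and 0.18, Wasl -0.28 and 0.41, Wipf1 -0.02 and 0.31. For WAVE subunits they were Wasf2 -0.02 and 0.48, Nckap1l -0.18 and 0.16, Cyfip1 -0.43 and 0.18, Abi1 -0.32 and 0.32, Brk1 -0.95 and 0.35. For Arp2/3 subunits and regulators they were Actr2 -0.23 and 0.31, Actr3 -0.25 and 0.24, Arpc1a -0.38 and 0.23, Arpc1b -0.87 and 0.31, Cfl1 -0.60 and 0.25, Pfn1 -0.93 and 0.27, Coro1a -1.09 and 0.16, Vasp -0.72 and 0.21.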
